A study of Mus musculus with 4 samples.

Results

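The 54 genes described here encode the machinery that copies the genome and the enzymes that supply its deoxynucleotides. They were taken by gene symbol from a count table of 26561 genes, after its Ensembl identifiers had been mapped to GRCm38 with GENCODE M21, and each of the 54 was found as 1 row. They fall into 6 subgroups by role, which are origin licensing (9 genes), the replicative helicase and its activation (14), the polymerases (9), the sliding clamp with its loader, flap processing and the single-strand binding protein RPA (11), deoxynucleotide (dNTP) supply (7) and E2F transcription factors (4). The libraries came from MC38, a mouse colon tumour line of wild-type genotype that the labels call epithelial. In the irradiated group, cells had received 1 X-ray fraction of 30 Gy and RNA was taken 60 h later, in 2 libraries. The unirradiated group also holds 2 libraries, and the sources used here give no harvest time for it, so time in culture and irradiation cannot be told apart. The labels do not say whether libraries were grown as separate cultures, so a p-value here reflects the spread among 4 libraries and that spread may be technical.

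A replication origin is licensed in G1 when the origin recognition complex (ORC), CDC6 and CDT1 load the MCM helicase ring onto DNA, and geminin holds CDT1 in check once S phase has begun. The CDC7 kinase with its DBF4 subunit, together with CDC45 and the GINS complex, turns the loaded ring into an active helicase, after which polymerases α, δ and ε copy the strands with the help of the clamp PCNA. Ribonucleotide reductase, thymidylate synthase and thymidine kinase feed the dNTP pools, and E2F factors drive or repress the transcription of many of these genes at the G1/S boundary.

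The 4 libraries held 26059171 to 29881492 counts each. All 54 genes passed the filter on low counts, which kept 15298 genes, with 303 counts over the 4 libraries for the lowest (Fen1). The epithelial label was checked against its markers. Epcam, the epithelial adhesion molecule, had 0, 0, 0 and 1 counts, Krt18, Cldn4 and Cldn7 had fewer than 10 counts in every library, and 7 of 8 listed markers were in the table. Cdh1, which encodes E-cadherin, had 998 and 1009 counts in the unirradiated and 2173 and 1798 in the irradiated libraries, while Vim, which encodes the mesenchymal filament vimentin, had 95096 to 125501. The summed level of the 7 epithelial markers was 36.5 to 38.4 CPM (counts scaled to a common library size) in unirradiated and 69.9 to 75.9 CPM in irradiated libraries, that of 6 fibroblast markers 5118 to 5147 and 4663 to 4708 CPM, that of 5 leukocyte markers 0.206 to 0.400 and 0.873 to 0.942 CPM, and that of 4 endothelial markers 1.92 to 2.58 and 6.21 to 6.55 CPM. The fibroblast sum is nearly all Vim, which fell (log2 fold change -0.26), while the other 5 fibroblast markers were called higher, Dcn most (46 and 58 against 1073 and 965 counts) and then Col1a1, Pdgfrb, Pdgfra and Col1a2 (edgeR). The epithelial sum is nearly all Cdh1, which was called higher, as was Krt8 (6 and 3 against 30 and 20 counts, edgeR). Krt19 did not pass (50 and 53 against 46 and 31 counts, log2 fold change -0.42), and no leukocyte marker was called. Both endothelial markers that could be tested were called higher (edgeR). They were Pecam1 (63 and 47 against 145 and 145 counts) and Tek (0 and 4 against 25 and 23 counts). The 4 sums moved with the groups, as most of the genes below did, and the part of these markers in the results was not tested. In bulk libraries, fewer cells in S phase and less RNA per cell cannot be told apart.

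Irradiated cells had less messenger RNA for 6 of 7 dNTP genes, for 3 of 4 E2F factors and for the polymerase δ subunits Pold2 and Pold3, while 10 of 14 helicase genes were higher, most of them slightly. Of the 54 genes, 15 were higher and 24 lower at an edgeR quasi-likelihood p under 0.05 after Benjamini-Hochberg adjustment over all tested genes, and 15 did not pass. That is 72.2% called, beside 60.7% of all 15298 tested genes, of which 30.4% were higher and 30.3% lower. The median log2 fold change was -0.06 for the 54 genes and 0.01 for all tested genes. Large changes were mostly falls, since 11 of the 54 fell by at least 1.5-fold and 2 rose by as much, beside 10.7% and 17.5% of all tested genes. The range ran from a log2 fold change of -1.63 (Pold2) to 0.85 (Orc1). Most changes were small, and the median absolute log2 change was 0.24 for these genes and 0.39 over all tested genes. In CPM the groups were apart for most genes, with the irradiated libraries above for 18 and below for 28, and they overlapped for 8. Over all tested genes, 78.4% had groups without overlap.

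The balance between rises and falls moved with scaling, filter and tool. It was 15 higher to 24 lower (38.5% higher) with TMM factors, 18 to 19 (48.6%) with upper-quartile factors and 18 to 20 (47.4%) on total counts alone. Those scalings moved all tested genes in the same direction, from 50.1% of calls higher to 57.3% and 56.1%. A filter of at least 5 CPM in 2 libraries gave 18 to 19 (48.6%), no filter 11 to 24 (31.4%), and DESeq2 12 to 22 (35.3%). No gene changed its direction of call in any of the 12 alternatives. Of the called genes, 11 higher and 18 lower ones stayed past the threshold in all 11 alternatives that tested a change of any size, and the other 10 lost the call in at least 1.

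**Figure D1:**
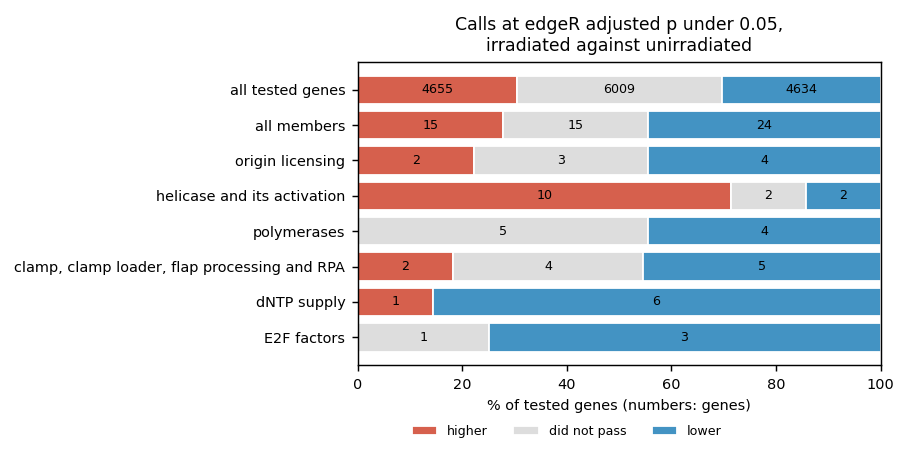
Share of genes called higher, lower or neither in irradiated against unirradiated cells (x axis, % of tested genes; numbers are genes; edgeR adjusted p under 0.05), for all tested genes, the 54 genes and their 6 subgroups. The helicase bar is mostly higher (10 of 14), and the dNTP bar mostly lower (6 of 7).

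**Figure D2:**
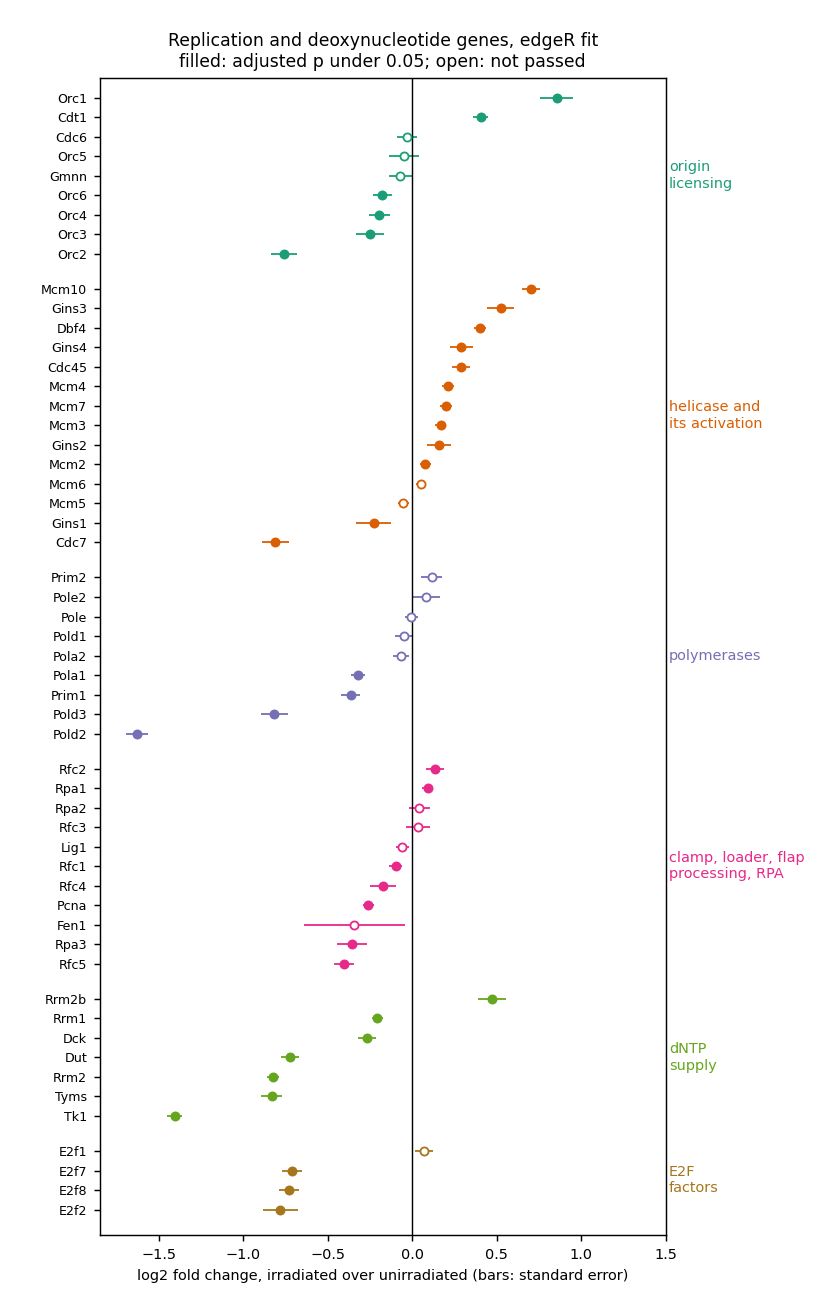
Log2 fold change of each of the 54 genes, irradiated over unirradiated (x axis), with bars for the standard error, by subgroup; filled points passed an edgeR adjusted p of 0.05 and open points did not. Pold2 lies farthest to the left at -1.63 and Orc1 farthest to the right at 0.85.

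The DNA upstream of 4 of these genes is shown because they carry different numbers of E2F-type words and moved differently. They were picked in part by how they moved and stand for no larger set. Tk1, which fell, was also looked at, had no E2F word or CCAAT box in its window, and is not printed. The windows are RefSeq sequence on GRCm38.p6, 5′ to 3′ on the strand of the gene. They run from 200 bases before the RefSeq start up to the start, except for Orc1, whose last shown base is 2 bases before it. The windows of Orc1 and Rrm2 end inside the GENCODE gene, and the RefSeq start of Mcm6 matched no GENCODE transcript. Capitals mark E2F words (TTTCCCGC, TTTCGCGC, TTTGCCGC and TTTGGCGC) and CCAAT boxes, on either strand.
Orc1, chr4:108579254-108579452, plus strand: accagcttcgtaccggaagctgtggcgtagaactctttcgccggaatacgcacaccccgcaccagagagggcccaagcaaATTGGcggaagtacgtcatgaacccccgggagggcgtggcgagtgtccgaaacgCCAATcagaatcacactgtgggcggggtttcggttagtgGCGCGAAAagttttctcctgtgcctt
Mcm6, chr1:128359706-128359905, minus strand: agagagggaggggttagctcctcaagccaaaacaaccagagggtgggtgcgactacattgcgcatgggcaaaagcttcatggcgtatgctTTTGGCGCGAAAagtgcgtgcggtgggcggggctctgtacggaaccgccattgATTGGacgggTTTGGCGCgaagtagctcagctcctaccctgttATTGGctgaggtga
E2f7, chr10:110745239-110745438, plus strand: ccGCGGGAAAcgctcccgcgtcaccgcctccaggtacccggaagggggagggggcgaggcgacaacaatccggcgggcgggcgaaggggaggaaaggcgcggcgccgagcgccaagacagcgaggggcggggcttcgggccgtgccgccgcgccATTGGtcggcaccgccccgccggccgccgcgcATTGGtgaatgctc
Rrm2, chr12:24708054-24708253, plus strand: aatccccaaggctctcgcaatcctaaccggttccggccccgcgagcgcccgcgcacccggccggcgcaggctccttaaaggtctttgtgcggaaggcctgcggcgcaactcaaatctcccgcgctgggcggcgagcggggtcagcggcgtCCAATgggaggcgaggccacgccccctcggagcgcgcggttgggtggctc
Orc1 rose and has an E2F word starting 27 bases before its RefSeq start, with CCAAT boxes at 66 and 120 bases. Mcm6 did not pass the test and has 3 E2F words, at 47, 106 and 110 bases before the start, of which the last pair overlap on opposite strands. E2f7 fell and has 1 such word at 198 bases. Rrm2 fell and has a CCAAT box at 50 bases and no E2F word.

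Over the whole RefSeq windows of 300 bases (250 before and 50 after the start), 45 of the 54 genes had an entry. At least 1 E2F word was found in 17 of the 45 (37.8%), beside 2.60% of 27025 genes with a window (2.26% of 32851 windows). By subgroup these were 4 of 8 licensing genes (Orc1, Orc3, Cdc6 and Cdt1), 5 of 10 helicase genes (Mcm3, Mcm5, Mcm6, Mcm7 and Gins3), 4 of 7 polymerase genes (Pola1, Pold1, Pold3 and Pole2), 2 of 10 clamp and RPA genes (Rfc3 and Lig1), 0 of 6 dNTP genes and 2 of 4 E2F factors (E2f2 and E2f7). Of the 17 with a word, 5 were higher, 5 lower and 7 not called, with a median log2 fold change of -0.03. Among the 28 without one, 5 were higher, 18 lower and 5 not called, with a median of -0.23. Over all tested genes, with or without a word, 30.4% were higher and 30.3% lower. The 28 include all 6 dNTP genes with a window, and 6 of the 7 dNTP genes were lower. Whether the word goes with the direction of change was not tested. A CCAAT box was found in 26 of the 45 (57.8%), beside 41.1% of genes with a window (37.4% of windows). The word TTTGAA of the cell-cycle homology region was found in 10 of the 45 (22.2%), beside 20.2% of genes (17.9% of windows). A match is a run of letters and says nothing about binding in these cells.

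In origin licensing, the largest ORC subunit gene and the loader Cdt1 rose while 4 other ORC genes fell. Of the 9 genes 2 were higher, 4 lower and 3 did not pass (66.7% called, beside 60.7% of all tested genes). The median log2 fold change of the 9 was -0.07. Orc1 (ENSMUSG00000028587, chr4:108579423-108614833) encodes the ORC subunit that is itself regulated through the cell cycle. It had 474 and 509 counts in the unirradiated and 908 and 856 in the irradiated libraries, and both irradiated libraries were above both unirradiated ones. It rose 1.81-fold, from 17.3 ± 0.132 to 31.4 ± 1.23 CPM (SD over n = 2 libraries per group; log2 fold change 0.85, SE 0.10, edgeR adjusted p 6.77e-17). Cdt1 (ENSMUSG00000006585, chr8:122568015-122573554), which brings the MCM ring to ORC, had 3442 and 3245 counts against 4759 and 4058. It rose 1.32-fold, from 118 ± 9.97 to 156 ± 4.95 CPM (SD, n = 2; log2 fold change 0.40, SE 0.04, edgeR adjusted p 1.39e-18).

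Orc2 (ENSMUSG00000026037, chr1:58462771-58505109), a core ORC subunit, had 1324 and 1529 counts in unirradiated and 910 and 765 in irradiated libraries, with no overlap. It fell 1.69-fold, from 50.3 ± 2.97 to 29.7 ± 1.24 CPM (SD, n = 2; log2 fold change -0.76, SE 0.08, edgeR adjusted p 6.99e-22). The falls of the other core subunits were small. Orc3 had 996 and 1189 against 918 and 902 counts and was 1.19-fold lower (log2 fold change -0.25, SE 0.08, edgeR adjusted p 0.00441). Orc4 had 1722 and 1846 against 1735 and 1367 counts and was 1.15-fold lower (log2 fold change -0.20, SE 0.06, edgeR adjusted p 0.00338), and Orc6 was 1.13-fold lower (log2 fold change -0.18, adjusted p 0.00334). These 3 calls were not stable. Orc3 lost its call without unirradiated replicate 2 or irradiated replicate 1 (edgeR or DESeq2 adjusted p 0.00218 to 0.176 over 11 alternatives), Orc4 without irradiated replicate 2, with upper-quartile factors or at 5 CPM (0.000704 to 0.239), and Orc6 without unirradiated replicate 2, with upper-quartile factors, on total counts or at 5 CPM (0.00144 to 0.0931). Orc5 (log2 fold change -0.05), Cdc6, the ATPase that works with ORC (-0.03), and Gmnn, which encodes geminin (-0.07), did not pass. Exons of Orc1, Orc2, Orc4 and Orc6 overlap genes on the opposite strand that hold over 10% as many counts. For Orc2 the overlapped gene Nif3l1 had 61.3% as many and for Orc1 the overlapped gene Gm12743 had 11.1%. For Orc6 the overlapped gene Vps35 had 588% as many, and for Orc4 the overlapped genes Mbd5 and Acvr2a had 56.7% and 41.6%. The sources used here do not say whether counting used strand, and without strand the reads of such pairs cannot be told apart. With those genes left out, 1 licensing gene was higher and 1 lower.

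Most genes of the MCM ring and its partners rose, by small amounts. Of the 14 genes 10 were higher, 2 lower and 2 did not pass (85.7% called, beside 60.7% of all tested genes). The median log2 fold change of the 14 was 0.18. Summed over the 14, the level was 2545 and 2589 CPM in the unirradiated and 2837 and 2830 CPM in the irradiated libraries. Of the ring subunits, Mcm3 (log2 fold change 0.17), Mcm4 (0.21) and Mcm7 (0.20) rose by at most 1.16-fold, Mcm2 by 1.06-fold (0.08), and Mcm5 (-0.05) and Mcm6 (0.05) did not pass. Mcm6 had 12659 and 14075 counts against 14567 and 12964. It was called higher without unirradiated replicate 2 and under 3 alternatives of scaling or filter (edgeR or DESeq2 adjusted p 6.15e-05 to 0.642 over 11 alternatives). Mcm2 lost its call by DESeq2, with no filter, with the replicate block, and without unirradiated replicate 1, unirradiated replicate 2 or irradiated replicate 2 (1.73e-05 to 0.286).

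Mcm10 (ENSMUSG00000026669, chr2:4989714-5012791), a helicase activator that binds the assembled complex, rose most. Its counts were 1767 and 1844 in unirradiated and 3230 and 2623 in irradiated libraries, without overlap. It went from 63.7 ± 0.803 to 104 ± 6.86 CPM (SD, n = 2), 1.63-fold (log2 fold change 0.70, SE 0.05, edgeR adjusted p 6.22e-37). Gins3, a GINS subunit, had 900 and 808 counts against 1274 and 1169 and rose 1.44-fold (log2 fold change 0.52, SE 0.08, edgeR adjusted p 3.00e-10). Cdc45 and Gins4 each rose (log2 fold change 0.29 in both), as did Gins2 (0.16). The GINS gene Gins1 had 611 and 683 counts against 573 and 523 and was 1.17-fold lower (log2 fold change -0.23, SE 0.11, edgeR adjusted p 0.0485). That call held in only 1 of 11 alternatives, that with no filter, and was lost without any 1 of the 4 libraries, under each other scaling, at 5 CPM, with the replicate block and by DESeq2 (edgeR or DESeq2 adjusted p 0.0464 to 0.223 over 11 alternatives), with a log2 fold change between -0.26 and -0.16. The call of Gins2 was lost by DESeq2, with no filter, with the replicate block, and without unirradiated replicate 1, unirradiated replicate 2 or irradiated replicate 1 (0.0029 to 0.297). Exons of Gins2, Cdc45 and Mcm7 overlap the opposite-strand genes Gse1, Ufd1 and Cops6, with 90.6%, 90.6% and 38.8% as many counts, and without strand their reads cannot be told apart. With such genes left out, 7 helicase genes were higher and 2 lower, and over the whole list 11 were higher and 19 lower.

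The 2 subunits of the kinase that fires licensed origins moved apart. Cdc7 (ENSMUSG00000029283, chr5:106964322-106984432), the catalytic subunit, had 1275 and 1425 counts in unirradiated and 789 and 739 in irradiated libraries. It fell 1.75-fold, from 47.6 ± 1.71 to 27.2 ± 0.943 CPM (SD, n = 2; log2 fold change -0.81, SE 0.08, edgeR adjusted p 5.18e-23). Dbf4 (ENSMUSG00000002297, chr5:8396973-8422716), the regulatory subunit, had 5101 and 5811 counts against 7708 and 6599. It rose 1.32-fold, from 192 ± 9.49 to 254 ± 7.32 CPM (SD, n = 2; log2 fold change 0.40, SE 0.04, edgeR adjusted p 3.65e-26). For neither gene did the libraries of the groups overlap.

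Among the polymerase genes, the polymerase δ subunits Pold2 and Pold3 fell, while its catalytic subunit and the polymerase ε genes Pole and Pole2 did not pass the test. Of the 9 genes 0 were higher, 4 lower and 5 did not pass (44.4% called, beside 60.7% of all tested genes). The median log2 fold change of the 9 was -0.07. None was higher at an unadjusted edgeR p under 0.05 or by DESeq2 (0 genes in each), and 1, Prim2, was called higher with upper-quartile factors, on total counts or at 5 CPM. Pold2 (ENSMUSG00000020471, chr11:5872180-5878292), the subunit that joins the catalytic and the third subunit of polymerase δ, had 2656 and 2609 counts in unirradiated and 885 and 807 in irradiated libraries. It fell 3.09-fold, the largest fall of the 54 genes, from 93.0 ± 5.15 to 30.1 ± 0.474 CPM (SD, n = 2; log2 fold change -1.63, SE 0.06, edgeR adjusted p 2.57e-140). Pold3 (ENSMUSG00000030726, chr7:100082111-100121565), the subunit that binds PCNA, had 1353 and 1394 against 798 and 750 counts. It fell 1.76-fold, from 48.5 ± 1.05 to 27.5 ± 1.02 CPM (SD, n = 2; log2 fold change -0.82, SE 0.08, edgeR adjusted p 8.51e-24). Pold1, the catalytic subunit, had 3092 and 3165 against 3119 and 2884 counts, and its groups overlapped in CPM (log2 fold change -0.05, SE 0.05, edgeR adjusted p 0.393).

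Polymerase α with primase lays down the RNA-DNA primers, and 1 subunit of each enzyme fell. Prim1, the catalytic primase subunit, had 2339 and 2438 against 2003 and 1690 counts and fell 1.29-fold (log2 fold change -0.36, SE 0.06, edgeR adjusted p 3.10e-10). Pola1, the catalytic subunit of polymerase α, had 5224 and 5880 against 4720 and 4113 counts and fell 1.25-fold (log2 fold change -0.32, SE 0.04, edgeR adjusted p 1.01e-14). Their partners Pola2 (log2 fold change -0.07) and Prim2 (0.12) did not pass, nor did Pole (-0.01) and Pole2 (0.08), the catalytic and an accessory subunit of polymerase ε.

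The clamp, its loader and RPA changed little. Of the 11 genes 2 were higher, 5 lower and 4 did not pass (63.6% called, beside 60.7% of all tested genes). The median log2 fold change of the 11 was -0.10, and none of them changed by 1.5-fold in either direction. Pcna, the clamp that tethers polymerases to DNA, had 9027 and 9473 against 8126 and 7223 counts and fell from 326 ± 2.83 to 273 ± 0.626 CPM (SD, n = 2; log2 fold change -0.26, SE 0.03, edgeR adjusted p 9.01e-14). Rfc5, a subunit of the clamp loader, had 2094 and 2420 against 1760 and 1623 counts and fell 1.32-fold (log2 fold change -0.40, SE 0.06, edgeR adjusted p 9.03e-12). Rpa3, the smallest RPA subunit, had 918 and 1077 against 802 and 742 counts and fell 1.28-fold (log2 fold change -0.36, SE 0.09, edgeR adjusted p 0.000102). In each of these 3 genes both irradiated libraries lay below both unirradiated ones in CPM.

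Subunits of the same complexes went the other way. Rpa1, the large DNA-binding subunit, had 9569 and 10671 against 11301 and 10110 counts and rose 1.07-fold (log2 fold change 0.09, SE 0.03, edgeR adjusted p 0.00846), and Rpa2 did not pass (0.04). In the loader, Rfc2 had 2263 and 2409 against 2711 and 2381 counts and rose 1.10-fold (log2 fold change 0.13, SE 0.05, edgeR adjusted p 0.0229), Rfc1 (-0.10) and Rfc4 (-0.17) were lower, and Rfc3 (0.04) did not pass. The changes of Rfc1, Rfc2, Rfc4 and Rpa1 were small and their calls not stable. Rfc2 lost its call without any 1 of the 4 libraries, with no filter and by DESeq2, while its log2 fold change stayed at 0.11 to 0.20 (edgeR or DESeq2 adjusted p 0.000317 to 0.109 over 11 alternatives). Rpa1 lost it without unirradiated replicate 1 and with no filter (8.67e-07 to 0.194). Rfc1 lost it without unirradiated replicate 2 or irradiated replicate 2 (0.0095 to 0.567), and Rfc4 without unirradiated replicate 1, unirradiated replicate 2 or irradiated replicate 1 and by DESeq2 (0.013 to 0.419). Both also lost it with upper-quartile factors, on total counts and at 5 CPM. Lig1, the ligase that seals Okazaki fragments, did not pass (-0.06). Fen1, the flap nuclease, had only 108, 62, 57 and 76 counts and did not pass (log2 fold change -0.34, SE 0.30, edgeR adjusted p 0.326). Its exons overlap the opposite-strand genes Gm10143 (over 1909 bases, 126 counts) and Tmem258 (over 130 bases, 3398 counts). Without strand the reads of these overlapping genes cannot be told apart. Rfc4 and Rfc5 also overlap opposite-strand genes, Eif4a2 and Wsb2, with 962% and 77.9% as many counts.

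All 7 dNTP genes were called, 6 lower and 1 higher, beside 60.7% called over all tested genes. The median log2 fold change of the 7 was -0.72, and that of the 15 other dNTP genes below was 0.01. The summed level of the 7 was 1305 and 1306 CPM in the unirradiated and 858 and 867 CPM in the irradiated libraries. Tk1 (ENSMUSG00000025574, chr11:117815526-117826092), the S-phase thymidine kinase of the salvage route, had 5769 and 5863 counts in unirradiated and 2185 and 2167 in irradiated libraries (log2 fold change -1.41, SE 0.05, edgeR adjusted p 1.63e-204). Tyms (ENSMUSG00000025747, chr5:30058202-30073617), which makes thymidylate from deoxyuridylate, had 2064 and 2237 against 1262 and 1136 counts. It fell 1.78-fold, from 75.9 ± 1.07 to 42.6 ± 0.282 CPM (SD, n = 2; log2 fold change -0.83, SE 0.06, edgeR adjusted p 8.02e-39). Dut, the dUTPase that keeps uracil out of DNA and yields the substrate of thymidylate synthase, fell 1.65-fold (log2 fold change -0.72), and Dck, the deoxycytidine kinase, also fell (-0.27). Salvage and new synthesis of thymidylate were thus both represented among the falls.

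Ribonucleotide reductase has a large subunit, Rrm1, and a small subunit that is either Rrm2, made in S phase, or Rrm2b, a target of p53. Rrm2 (ENSMUSG00000020649, chr12:24708241-24714146) had 11423 and 12300 counts in unirradiated and 6864 and 6433 in irradiated libraries. It fell 1.77-fold, from 419 ± 3.99 to 236 ± 8.31 CPM (SD, n = 2; log2 fold change -0.82, SE 0.03, edgeR adjusted p 2.83e-131). Rrm2b (ENSMUSG00000022292, chr15:37923952-37961318) had 818 and 855 against 1245 and 1064 counts. It rose 1.39-fold, from 29.5 ± 0.339 to 41.0 ± 1.23 CPM (SD, n = 2; log2 fold change 0.47, SE 0.08, edgeR adjusted p 3.12e-08). Rrm1 fell 1.15-fold (log2 fold change -0.21, edgeR adjusted p 1.13e-09). On a per-length scale Rrm2 remained far above Rrm2b after irradiation, at 313 against 16.5 TPM (counts per length of exon, scaled to a common sum), from 536 against 11.5 TPM before.

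Of the 4 E2F factors, 3 fell and 0 rose (75% called, beside 60.7% of all tested genes). There were 0 rises at an unadjusted edgeR p under 0.05 and 0 by DESeq2. The median log2 fold change of the 4 was -0.72. E2f2 (ENSMUSG00000018983, chr4:136172394-136196057), an activator, had 751 and 858 counts in unirradiated and 463 and 465 in irradiated libraries. It fell 1.72-fold, from 28.4 ± 1.46 to 16.5 ± 1.39 CPM (SD, n = 2; log2 fold change -0.78, SE 0.10, edgeR adjusted p 2.16e-13). The atypical repressors fell by similar amounts. E2f7 (ENSMUSG00000020185, chr10:110745439-110787384) had 2297 and 2458 against 1552 and 1331 counts and fell 1.64-fold (log2 fold change -0.71, SE 0.06, edgeR adjusted p 8.70e-33). E2f8 (ENSMUSG00000046179, chr7:48866429-48881596) had 2207 and 2370 against 1423 and 1315 counts and fell 1.66-fold (log2 fold change -0.73, SE 0.06, edgeR adjusted p 5.79e-33). E2f1, the best known activator, had 2687 and 2848 against 3094 and 2681 counts and did not pass (log2 fold change 0.07, SE 0.05, edgeR adjusted p 0.238), though it was called higher with upper-quartile factors, on total counts or at 5 CPM (edgeR or DESeq2 adjusted p 0.011 to 0.542 over 11 alternatives).

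**Figure D3:**
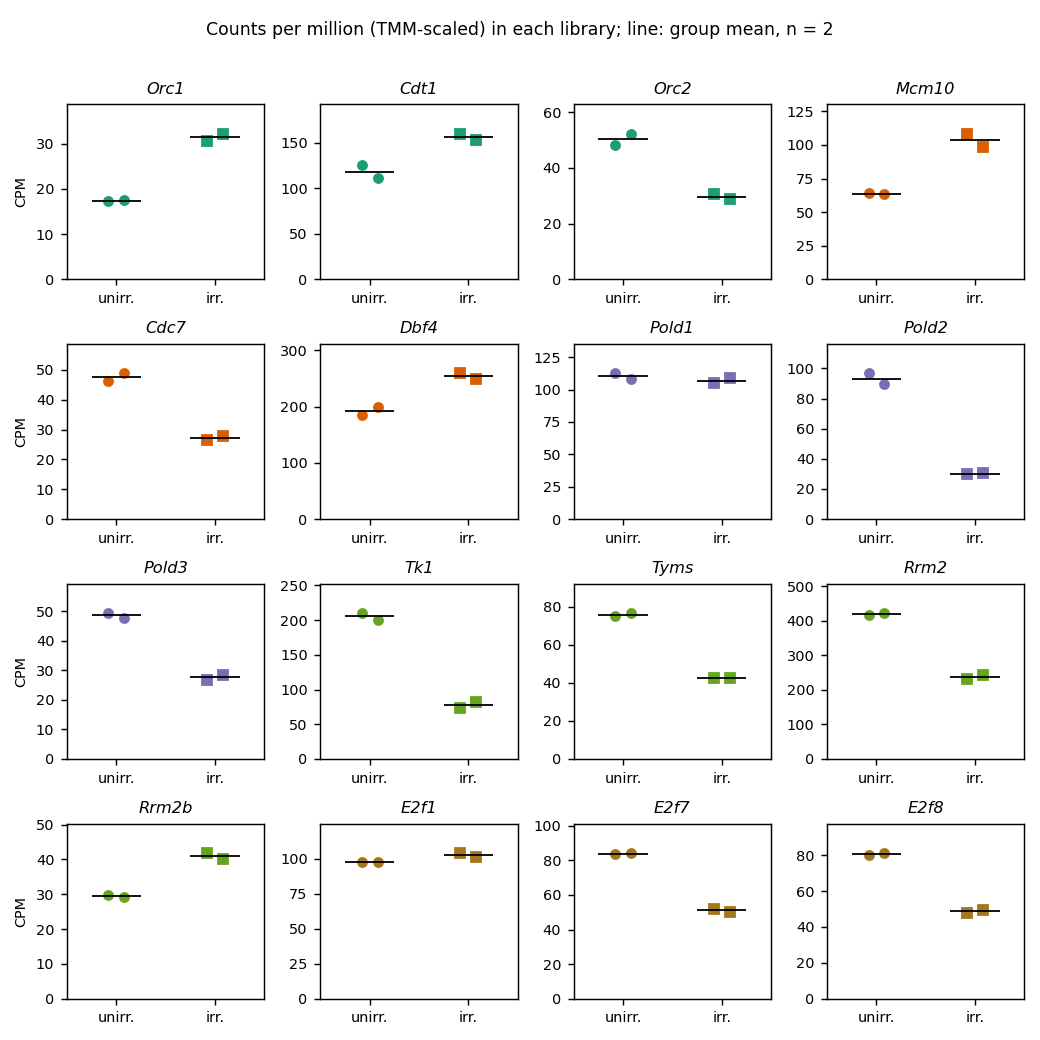
CPM of 16 genes in each library (y axes start at 0; circles, unirradiated; squares, irradiated; lines, group means, n = 2). Pold2, Tk1, Rrm2, Tyms, E2f7 and E2f8 sit lower in both irradiated libraries, Orc1, Cdt1, Mcm10, Dbf4 and Rrm2b sit higher, and the Pold1 points overlap.

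Compared per length of transcript, the levels of the 54 genes spanned a wide range, and their order differed between the groups in a few places. Rrm2 was the highest in unirradiated cells at 536 TPM, followed by Pcna at 482 TPM. In irradiated cells Pcna was the highest at 417 TPM, and Rrm2, at 313 TPM, lay below Mcm6, Mcm4, Mcm5 and Mcm3 as well. The ring subunits of the MCM helicase ran from 159 TPM (Mcm2) to 358 TPM (Mcm6) before and from 174 to 385 TPM after irradiation, and the catalytic polymerase genes lay below them, as with Pold1 at 80.6 and 80.7 TPM. Pold2 stood above Pold1 in unirradiated cells, at 174 TPM, and below it in irradiated cells, at 58.2 TPM. Fen1 was the lowest in both groups, at 4.44 and 3.61 TPM, under the counting limit given above.

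**Figure D4:**
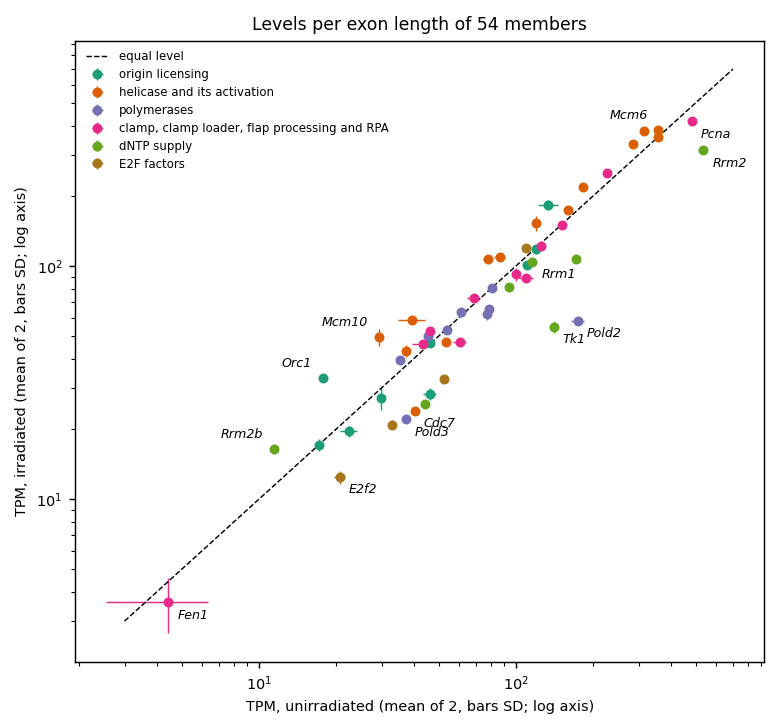
TPM of each of the 54 genes in irradiated (y) against unirradiated (x) cells, both on log axes, with means of 2 libraries, SD bars and a dashed line of equal level; colours are subgroups. Rrm2, Tk1 and Pold2 lie well below the line, and Orc1, Mcm10 and Rrm2b above it.

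Ratios of partner genes within a library, in counts per kilobase of exon, do not depend on scaling between libraries. Dbf4 stood to Cdc7 as 1.92 and 1.95 in the unirradiated and 4.68 and 4.28 in the irradiated libraries, a 2.31-fold rise. The ratio of Rrm2b to Rrm2 was 0.0217 and 0.0211 against 0.0550 and 0.0502, a 2.45-fold rise. In both pairs the partners had moved in opposite directions. Geminin to its target Cdt1 went from 0.825 and 0.979 to 0.644 and 0.649, 1.39-fold lower. The repressors E2f7 plus E2f8 stood to the activators E2f1 plus E2f2 as 0.657 and 0.657, and after irradiation as 0.403 and 0.412, 1.61-fold lower. In each of the 4 ratios the groups did not overlap, and with 2 libraries against 2 the exact two-sided permutation p was 0.333 for each, the smallest this design allows.

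**Figure D5:**
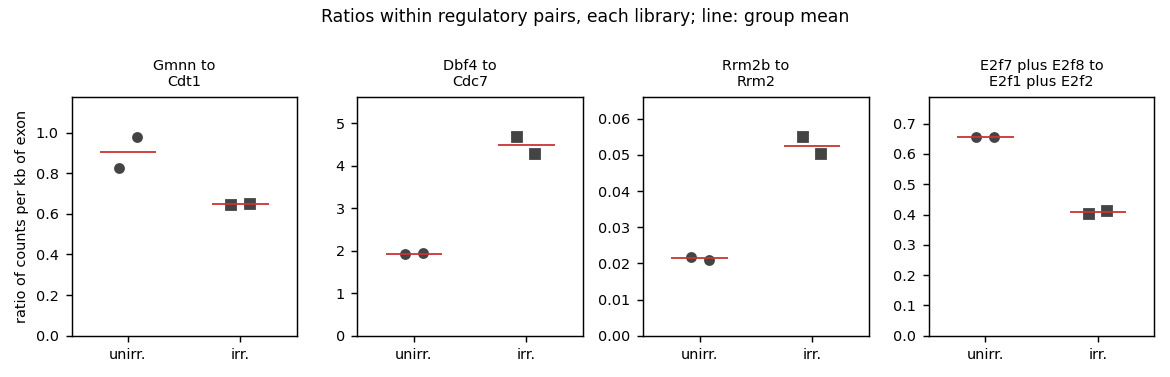
Ratio of counts per kilobase of exon within 4 pairs of partner genes (y axes start at 0) in each library (circles, unirradiated; squares, irradiated; lines, group means). Dbf4 to Cdc7 and Rrm2b to Rrm2 are higher in both irradiated libraries, and Gmnn to Cdt1 and the E2F ratio are lower.

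A further 55 genes of the same pathways had 17 higher, 23 lower and 15 not called, with a median log2 fold change of -0.04 (72.7% called, beside the 60.7% of all tested genes). Among 31 other initiation and fork genes, 9 were higher and 13 lower. Mcm8, a helicase of homologous recombination, rose 1.44-fold (1056 and 1235 against 1837 and 1448 counts), Pold4, the smallest polymerase δ subunit, rose 1.27-fold, and Dna2, a nuclease that trims long flaps, fell 2.46-fold (893 and 1072 against 382 and 407 counts). The fourth subunit of polymerase δ therefore rose (edgeR adjusted p 0.000592) where Pold2 and Pold3 fell. Of the other polymerase ε subunits, Pole3 rose 1.22-fold (log2 fold change 0.29, edgeR adjusted p 1.24e-07) and Pole4 did not pass (-0.10).

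Among 15 other dNTP genes, 5 were higher and 6 lower (73.3% called, beside 60.7% of all tested genes). The median log2 fold change of the 15 was 0.01. Cmpk2, a mitochondrial nucleotide kinase that interferon induces, had 20 and 7 counts in unirradiated and 441 and 413 in irradiated libraries, a 31.5-fold rise (log2 fold change 4.98, SE 0.25, edgeR adjusted p 8.92e-86). Samhd1, which breaks dNTPs down, had 3550 and 3959 against 7003 and 6039 counts and rose 1.75-fold (log2 fold change 0.81, SE 0.04, edgeR adjusted p 1.10e-87). Dctd, which deaminates dCMP towards thymidylate, had 3089 and 3413 against 1402 and 1126 counts and fell 2.56-fold (log2 fold change -1.36, SE 0.06, edgeR adjusted p 1.67e-124). Dctpp1, a dCTP pyrophosphatase, fell 2.04-fold. A rise of a dNTP-degrading enzyme was thus measured beside the falls of synthetic ones. Among 9 other E2F, DP and RB genes, 3 were higher and 4 lower, with Rbl2, the pocket protein p130, rising 1.46-fold and Tfdp2, a dimer partner of E2F, 1.37-fold. E2f4 and E2f5, the E2F factors that pair with p130, fell 1.83-fold and 1.80-fold.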

How the data were processed

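Messenger RNA was sequenced from 2 unirradiated and 2 irradiated MC38 libraries. The authors deposited whole-number counts per Ensembl gene, neither normalized nor pooled. Listed without roles in the submitters' processing notes are the mm10 build, HTSeq, HISAT2, HISAT and DESeq2. The sources used here give no versions, annotation release or strand setting. Groups and replicate numbers come from sample titles. For unirradiated replicate 2 the description carries the other unirradiated sample's number, and its title, which the column name matches, was followed.

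The 54 genes, their subgroups and the other pathway lists were chosen with earlier results of these data known. Of 26561 identifiers, 26372 matched GENCODE M21, which supplied symbols, coordinates and exons. The deposited counts were tested with edgeR 4.0.16 in R 4.3.3 (TMM, filterByExpr, robust glmQLFit, glmQLFTest, irradiation as the only term), with Benjamini-Hochberg adjustment over the 15298 genes that passed the filter and a threshold of 0.05. These genes hold 99.9% of counts. A standard error is the absolute log2 fold change over the square root of F. For 13772 genes the spread came from the fitted trend. CPM are counts per 1000000 of the TMM-scaled library, and TPM use exon-union length. Replicate libraries differed beyond counting noise (chi-square per gene 3.38 and 4.73).

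In each subgroup up to 3 of the largest rises and 3 of the largest falls past the threshold are given in full, with the partners in the ratios. In the other lists up to 2 of each are named, with Pole3 and Pole4 added as subunits of polymerase ε. Rif1, selected by that rule with a log2 fold change of -1.05, is given here only. Exons of 20 of the 54 genes overlap another gene, and 11 of them overlap a gene of over 10% as many counts. A further check found that 6 of the genes have a copy of at least 95% identity over 600 bases (Cdc6, Mcm7, Pcna, Rfc5, Rrm2b and Tyms), so their counts are less certain. On simulated data for this comparison, with 14919 genes tested, the fit recovered 19 of 50 genes planted with a 1.2-fold change. It recovered 33 of those planted with a 1.5-fold change, 42 of those with a 2-fold and 50 of those with a 4-fold change, and it called 6 unchanged genes. Few genes were changed in the simulation, whereas 60.7% were called in the real data, so the adjusted threshold was stricter there. Planted genes also included levels below those of most of the 54 genes. These shares therefore do not apply directly to the 54 genes. Alternatives were other scalings, filters, DESeq2 1.42.0, a minimum fold, a replicate block and leaving out each library.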

Additional observations from a re-analysis of the deposited data

How the results depend on the processing

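Against a fold of at least 1.2 (glmTreat), 6 of the 54 genes were higher and 13 lower, and licensing had 1 lower, the helicase 3 higher and 1 lower, the clamp group 0 higher and 1 lower, and all tested genes 2791 lower. With RLE factors, with DESeq2 and with the replicate block the helicase had 1 lower. DESeq2 gave the clamp group 1 higher, and no filter gave it 0. Upper-quartile factors and the filter of at least 5 CPM in 2 libraries, which removes Fen1, each gave licensing 2 lower, the helicase 1 lower, polymerases 1 higher, the clamp group 3 lower and E2F factors 1 higher. Total counts alone gave the helicase 1 lower, polymerases 1 higher, the clamp group 3 lower and E2F factors 1 higher. Leaving out 1 library gave the 54 genes 11 to 13 higher and 19 to 22 lower, licensing 2 to 4 lower, the helicase 1 lower, and the clamp group 0 to 1 higher and 3 to 4 lower. The lowest counts came without unirradiated replicate 2 for the lower genes and without unirradiated replicate 1 for the higher ones. In these fits the lone library of a group is assumed to vary like the other group. Leaving out genes whose exons overlap another gene with over 10% as many counts, an alternative chosen after seeing the data, gave licensing 1 higher and 1 lower and the clamp group 3 lower. The dNTP counts, 1 higher and 6 lower, changed only against a fold of at least 1.2, to 1 higher and 4 lower. Beyond the fewer libraries or genes of some fits, the cause was not tested.

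Replicate numbers did not pair the libraries (correlation of same-numbered deviations -0.0106, 2 pairs), and a replicate block gave 13 higher and 23 lower of the 54. Having 2 libraries in each group and a lowest member of 303 counts limit what could be detected.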
